A study of Mus musculus with 9 samples.

Results

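Cylc1 (locus MSTRG.24999) and Adam30 (locus MSTRG.13927) are 2 genes of male germ cells, 2 of the 50485 rows in a table of testis transcripts from mice with altered protamine 2. They were selected on measured values, because the study listed Cylc1 as differentially expressed in Prm2+/Δc against WT testes and Adam30 in Prm2-/Δc against WT testes. The values of each gene in the contrast that chose it are therefore given as a description, with no test. Cylc1 in Prm2-/Δc against WT and Adam30 in Prm2+/Δc against WT were tested. These contrasts share their WT libraries with the ones that chose the genes, so their tests are not independent of the choice. The study had compared the same libraries and listed neither gene in the contrast tested here. A test that did not pass could thus be foreseen and is not new evidence.

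Cylicin 1, the product of Cylc1, is a basic protein of the perinuclear theca, the rigid layer around the nucleus of the sperm head, where it forms part of the calyx behind the acrosome. Its gene lies on the X chromosome and is transcribed in spermatids, the haploid cells that become sperm. Adam30 belongs to the ADAM family of membrane proteins with metalloprotease and disintegrin domains, several of which are made in the testis and act on the sperm surface. The name sperm head genes, under which both were grouped, rests on this background. Only RNA was measured here, and where the proteins lie in the sperm was not.

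Testis RNA came from 9 male mice on a C57BL/6 background, with 3 mice per genotype, 1 library per mouse and ages of 10 to 13 weeks in the study. The genotypes were WT, Prm2+/Δc and, without a WT allele, Prm2-/Δc. Prm2Δc lacks, in frame, the part of protamine 2 that is normally cleaved off in spermatids. Prm2+/Δc males, labelled het, keep 1 WT allele, and Prm2-/Δc males, labelled hom, carry Prm2Δc beside a deletion allele of Prm2. Founders with a mixed C57Bl/6 and DBA2 background were backcrossed for at least 3 generations. WT libraries held 9070746 to 16799651 counts in total. Those of Prm2+/Δc held 12041708 to 20320362 and those of Prm2-/Δc 12409510 to 17441824.

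One library stood apart from the rest. Over 12542 loci with a mean of at least 50 normalized counts, log2 values of Prm2-/Δc replicate 3 had a median correlation of 0.870 with the other libraries, with 0.875 as the highest. The medians of the other 8 libraries were between 0.879 and 0.893. Fold changes of both genes in Prm2-/Δc, the sums of their neighbours and the correlations between loci are given with and without it. Normalized counts are estimated counts divided by a size factor for each library, so that they can be compared between libraries. Where different loci are set side by side, only their counts are compared, not their levels of RNA.

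Cylc1 lies on the plus strand of chromosome X from 111110418 to 111125854 of the mouse genome GRCm38, and no other annotated gene overlaps it. It has 2 annotated transcripts that end at different places. One has 6 exons and 1969 bases, and its last exon, from 111125822 to 111125854, is 33 bases long. The other has 5 exons and 1923 bases and ends with an exon of 1695 bases, from 111122180 to 111123874. Reads of 3′ mRNA libraries come from the ends of transcripts, and the table holds a single count for the locus that does not tell these ends apart.

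In WT testes, Cylc1 had 4380, 4073 and 4113 normalized counts in replicates 1, 2 and 3. In Prm2+/Δc testes it had 765, 693 and 711, and in Prm2-/Δc testes 857, 945 and 5943. Thus all 3 Prm2+/Δc libraries, whose contrast with WT chose Cylc1, lay far below every WT library. So did 2 of 3 Prm2-/Δc libraries, while Prm2-/Δc replicate 3 lay above all 3 WT libraries. The estimated counts behind these values were between 676 and 5471 per library, and the lowest has a 95% Poisson interval of 626 to 729, which covers counting error only.

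The mean of Cylc1 was 4188 ± 167 (SD, n = 3) in WT and 723 ± 37.4 (SD, n = 3) in Prm2+/Δc, which is 17.3% of the WT mean. The log2 fold change was -2.54 ± 0.09 (SE). The groups did not overlap, but the share of all loci without overlap was not computed, and nothing is read from this. Of the 2 genes, 1 (Cylc1) was among the 13 loci called in Prm2+/Δc against WT, 0.0730% of the 17815 loci tested. Loci were called where edgeR's quasi-likelihood test gave an adjusted p below 0.05 and the log2 fold change was beyond 1 in either direction. DESeq2 with the same limits called 83 of 20876 loci (0.398%), again with Cylc1 among them and Adam30 not. In one fit of all 9 libraries the log2 fold change was again -2.54, with an SE of 0.70, and Cylc1 was not called. With 1 replicate left out, edgeR called between 12 and 37 loci. Nothing is read from the call of Cylc1, since this contrast chose the gene.

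The contrast of Prm2-/Δc with WT did not choose Cylc1, and the study's list for it lacked Cylc1. Its mean in Prm2-/Δc was 2581 ± 2911 (SD, n = 3), 61.6% of the WT mean, and the groups overlapped, with 2 of 3 Prm2-/Δc libraries below every WT library and 1 above. The log2 fold change was -0.69 ± 0.76 (SE), with a 95% interval of -2.52 to 1.15, and did not pass edgeR's quasi-likelihood test (adjusted p = 1.0 after Benjamini-Hochberg adjustment, unadjusted p = 0.40). An exact two-sided permutation test on log2 values gave p = 0.40, where 3 against 3 libraries cannot go below 0.10. Without Prm2-/Δc replicate 3, with 2 libraries left in this group, the log2 fold change was -2.22 ± 0.11 (SE). This value passed the limits of edgeR's test but is given as a description. The WT values took part in choosing Cylc1, and the library was singled out after its values were seen. The mean of these 2 libraries, 901 ± 62.2 (SD, n = 2), was 21.5% of the WT mean. RNA of whole testes was measured, so fewer spermatids and less Cylc1 RNA per spermatid cannot be told apart.

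Between the mutant genotypes, Cylc1 was higher in each of 3 Prm2-/Δc libraries than in all 3 Prm2+/Δc libraries. The share of all loci that part these groups was not computed, and nothing is read from this order. The log2 fold change of Prm2-/Δc against Prm2+/Δc was 1.84 ± 0.79 (SE), given as a description with no test. Without Prm2-/Δc replicate 3 it was 0.30, so that library carried most of this difference. By level, the Prm2+/Δc libraries were lowest, 2 Prm2-/Δc libraries followed, then the WT libraries and Prm2-/Δc replicate 3.

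The spread of Cylc1 within a genotype was small apart from this library. The highest library had 1.08 times the lowest in WT and 1.10 times in Prm2+/Δc, where the medians over the 12542 loci were 1.37 and 1.27. The contrast of these groups chose Cylc1, and such a choice favours loci with little spread within groups. Nothing is therefore read from their low spread. In Prm2-/Δc the highest library had 6.94 times the lowest, against a median of 1.48. At least this much spread between the Prm2-/Δc libraries was seen at 749 of these loci (5.97%) beside Cylc1. Replicates 1 and 2 alone differed by a factor of 1.10.

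**Figure D1:**
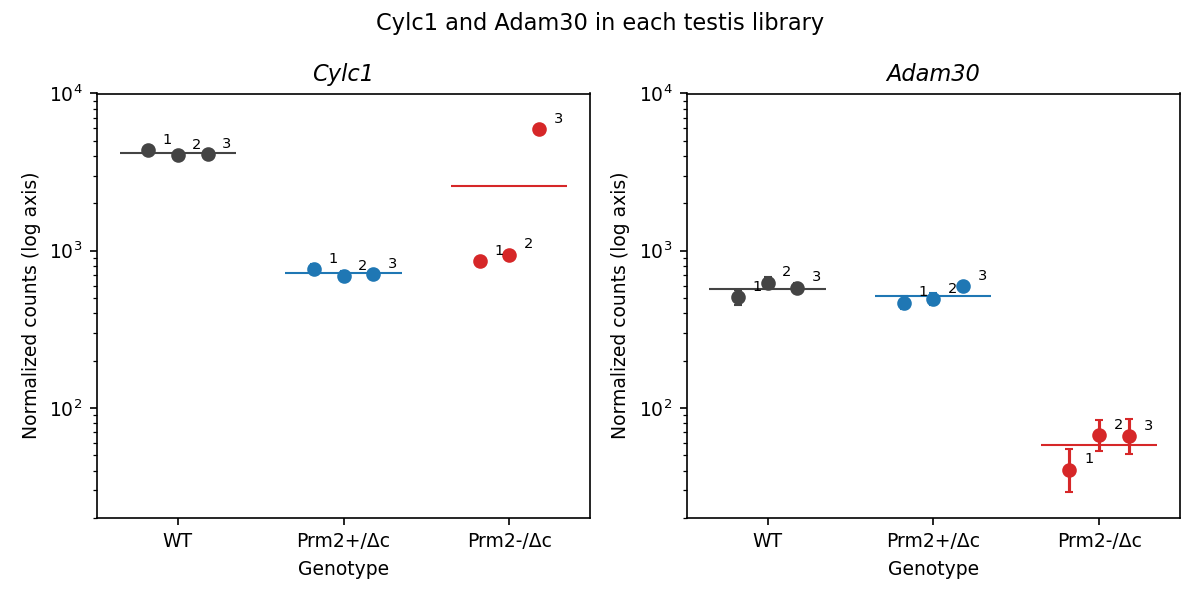
Normalized counts (log axis) of Cylc1 and Adam30 in each library, by genotype, with the replicate number beside each point. Horizontal lines are group means and bars are 95% Poisson intervals, which are smaller than most points. Cylc1 in Prm2-/Δc replicate 3, at 5943, lies above all WT libraries, and Adam30 lies between 40.6 and 67.4 in all 3 Prm2-/Δc libraries.

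Adam30 lies on the plus strand of chromosome 3 from 98160630 to 98164169 (GRCm38), and no other annotated gene overlaps it. Its longer annotated transcript is a single exon of 3510 bases, from 98160660 to 98164169, with its coding part from 98160853 to 98163048. The shorter one has 2 exons and 1042 bases and ends at 98162071. Notch2 ends 10269 bases before it on the same strand, and the next annotated gene after it, Gm9771, begins 25797 bases away on the minus strand.

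Adam30 had 506, 627 and 583 normalized counts in WT replicates 1, 2 and 3. It had 468, 494 and 592 in Prm2+/Δc and 40.6, 67.4 and 66.3 in Prm2-/Δc. All 3 Prm2-/Δc libraries were low, replicate 3 included, while WT and Prm2+/Δc libraries overlapped. The lowest value rests on 42 estimated counts, with a 95% Poisson interval of 30.3 to 56.8 counts.

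The contrast of Prm2+/Δc with WT did not choose Adam30, and the study's list for it lacked Adam30. The means were 518 ± 65.3 (SD, n = 3) in Prm2+/Δc and 572 ± 61.2 (SD, n = 3) in WT, with 2 of 3 Prm2+/Δc libraries below all WT libraries. The log2 fold change of -0.15 ± 0.14 (SE), with a 95% interval of -0.50 to 0.20, did not pass edgeR's quasi-likelihood test (adjusted p = 1.0, unadjusted p = 0.35). An exact two-sided permutation test gave p = 0.30, with 0.10 as the smallest possible value.

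In Prm2-/Δc, the mean of Adam30 was 58.1 ± 15.2 (SD, n = 3), 10.2% of the WT mean, and the log2 fold change against WT was -3.29 ± 0.26 (SE). Of the 2 genes, 0 were called in this contrast by edgeR, in which 1 of 17637 loci was called (0.00567%) and 565 had an unadjusted p under 0.05. DESeq2 called 72 of 19261 loci (0.374%), and Adam30 was 1 of them. This contrast chose Adam30, and nothing is read from either count. Without Prm2-/Δc replicate 3, the log2 fold change was -3.40 and edgeR called 20 loci in place of 1.

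Set beside Prm2+/Δc, Adam30 in Prm2-/Δc had a log2 fold change of -3.16 ± 0.26 (SE), again as a description, and -3.27 without replicate 3. In this contrast edgeR called 0 of the 2 genes and 2 of 17986 loci (0.0111%), with 733 loci at an unadjusted p under 0.05. Without Prm2-/Δc replicate 3 it called 70 loci. DESeq2 called 108 of 22107 loci (0.489%), among them Adam30 and not Cylc1. Both genes were chosen on values of these groups, and nothing is read from these counts. The order of the levels was Prm2-/Δc lowest and then Prm2+/Δc and WT, whose libraries overlapped.

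The 2 genes were chosen from different contrasts, so that a difference between their patterns over the 9 libraries follows in part from the choice. Pearson's r of their log2 values was 0.08 and Spearman's rho was -0.07, given as a description over libraries that share 3 genotypes. Over the 8 libraries other than Prm2-/Δc replicate 3, r was 0.39 and rho was 0.21, so the values near 0 rest on that library. The ratio of Cylc1 to Adam30 counts within a library does not depend on any scaling between libraries. It was 8.66, 6.50 and 7.05 in WT, 1.63, 1.40 and 1.20 in Prm2+/Δc, and 21.1, 14.02 and 89.7 in Prm2-/Δc. These ratios are a description, and nothing is read from their order over the genotypes, which the choice of the genes favours.

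**Figure D2:**
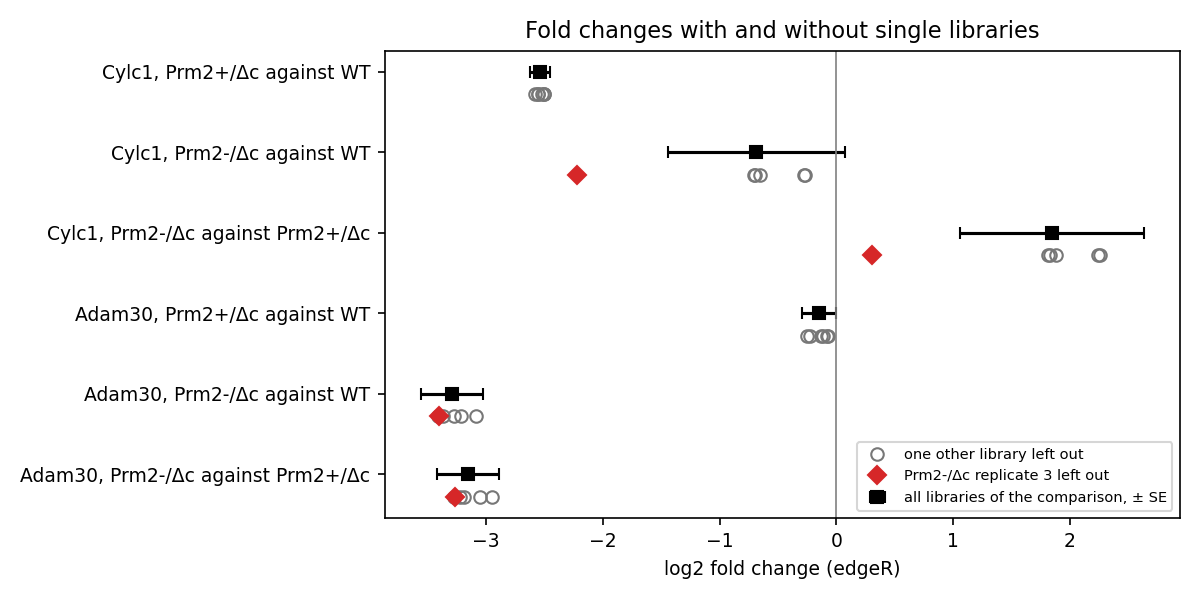
Log2 fold changes of both genes in the 3 comparisons, as squares with their SE, and the values with 1 library left out, as circles. Red diamonds leave out Prm2-/Δc replicate 3, which takes Cylc1 in Prm2-/Δc against WT from -0.69 to -2.22 and moves Adam30 against WT from -3.29 to -3.40.

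The loci numbered next to each gene were examined for counts that moved with it or against it. Locus numbers follow the assembly, and 0 of the 10 neighbours of either gene has a name here. Around Cylc1, the 10 neighbours together held between 211 and 380 normalized counts per library. Their sums were 241 ± 27.4 (SD, n = 3) in WT, 252 ± 44.4 (SD, n = 3) in Prm2+/Δc and 279 ± 89.4 (SD, n = 3) in Prm2-/Δc, or 228 ± 24.2 (SD, n = 2) without replicate 3. The mean of Cylc1 in Prm2+/Δc minus that in WT was -3466 normalized counts, a difference that no rise of these neighbours matched. Both loci directly beside Cylc1 were highest in Prm2-/Δc replicate 3, the library in which Cylc1 was high. MSTRG.24998 had 48.9 normalized counts there and between 3.86 and 15.5 in the other libraries, and MSTRG.25000 had 149 against 53.2 to 84.6. The neighbours further off that held counts were not highest in that library. MSTRG.24998 passed the filter on low counts in neither contrast with WT. How many of all loci were highest in that library was not computed, so nothing is read from these values.

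Around Adam30, the 10 neighbours held between 3096 and 4138 normalized counts per library, most of them at 1 locus. Their sums were 3312 ± 231 (SD, n = 3) in WT, 3301 ± 212 (SD, n = 3) in Prm2+/Δc and 3601 ± 514 (SD, n = 3) in Prm2-/Δc, or 3625 ± 725 (SD, n = 2) without replicate 3. MSTRG.13928, the next number after Adam30, varied between 97.3 and 627 normalized counts, with a low and a high library in each genotype. Of the neighbours of each gene that passed the filter on low counts, 5 or 6 in each comparison, 0 were called by edgeR. Over all loci tested it called 0.0730% in Prm2+/Δc against WT, 0.00567% in Prm2-/Δc against WT and 0.0111% in Prm2-/Δc against Prm2+/Δc. At such shares, 0 calls do not show that the neighbours were unchanged.

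**Figure D3:**
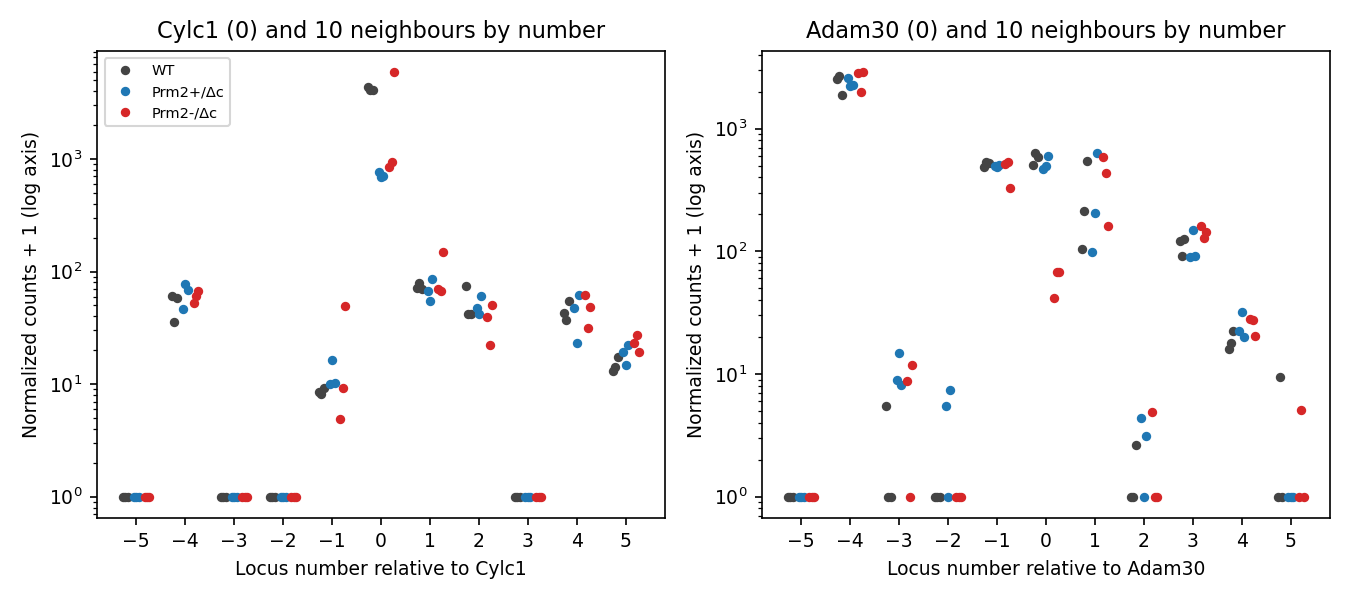
Normalized counts plus 1 (log axis) of each gene and of the 5 loci numbered before and after it, with a point for each library coloured by genotype. The positions at 0 are Cylc1 and Adam30, and the neighbours that passed the filter on low counts show no drop like theirs. Neighbours at or near 0 counts in every library could not show one.

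The named loci whose log2 values followed each gene most closely were sought among 266 other named loci with a mean of at least 50 normalized counts. Of these, 125 owe their name to the study's own lists for these genotypes, all 10 given here among them, so likeness is partly set by that choice. For Cylc1 the closest was Ing4, a subunit of a histone acetyltransferase complex, with r = 0.94 over 9 libraries. Ing4 had between 10187 and 10403 normalized counts in the WT libraries, between 2428 and 2829 in those of Prm2+/Δc, and 2826, 3663 and 6747 in Prm2-/Δc. It thus shared with Cylc1 the high value of Prm2-/Δc replicate 3, though this stayed below WT. Pbrm1, a subunit of a chromatin remodelling complex, followed with r = 0.92, and had 1181 normalized counts in that library against 465 to 663 in WT. Acadsb (r = 0.90), Ccnl2 (r = 0.87) and Ttll6 (r = 0.84) completed the 5. Without that library, the 5 correlations were between 0.81 and 0.99.

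For Adam30 the closest named locus was Fam102a, with r = 0.98. Fam102a had between 332 and 369 normalized counts in the WT libraries, between 349 and 416 in Prm2+/Δc, and 3.86, 19.7 and 5.43 in Prm2-/Δc. Ccnl1, a cyclin tied to splicing, had r = 0.97, with 215, 198 and 204 normalized counts in Prm2-/Δc and at least 563 in every other library. Gm15738 (r = 0.97), Itgad (r = 0.94) and Uhmk1 (r = 0.93) came next, and all 5 were low in each Prm2-/Δc library. Without Prm2-/Δc replicate 3, the 5 correlations were between 0.91 and 0.99. Among all 12541 loci compared, named or not, r was over 0.9 for 8 with Cylc1 and for 14 with Adam30.

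**Figure D4:**
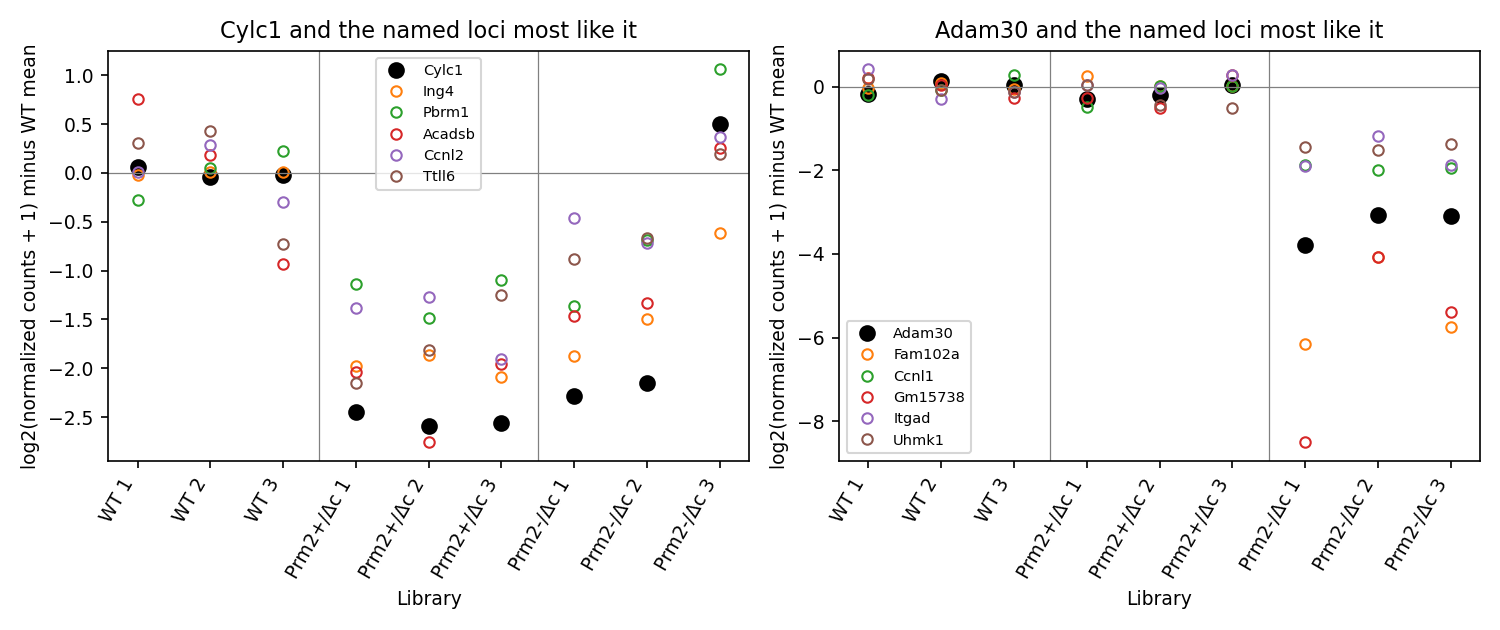
Log2(normalized counts + 1) of each gene (black) and of the 5 named loci most like it (open circles), relative to the WT mean, in the 9 libraries. The loci most like Cylc1 return towards or above the WT mean in Prm2-/Δc replicate 3, and those most like Adam30 are low in all 3 Prm2-/Δc libraries.

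Few relatives of either gene could be followed by name, and those mostly through rows with an Ensembl identifier. Such rows hold 0.391% of all counts, and the rest lies at assembled loci, most without a name here. A low value or a 0 in such a row is the value of that row, and reads of the gene at an unnamed locus would not be seen. Of 18 genes of the perinuclear theca and acroplaxome, 1 had a named row, Cylc1 itself, and of 16 genes of the acrosome, 0 had one. Of 35 genes of the ADAM family, 9 had a named row, 8 of them Ensembl rows, and 3 of these (Adam7, Adam28 and Adamdec1) were at 0 counts in every library. The rows of Adam9, Adam22 and Adam23 had at most 49.4 normalized counts in any library, and those of Adam19 and Adam33 at most 18.0. The ADAM genes tested numbered 4 in Prm2+/Δc against WT, 5 in Prm2-/Δc against WT and 4 in Prm2-/Δc against Prm2+/Δc, and 0 were called by edgeR. In the same order, edgeR called 0.0730%, 0.00567% and 0.0111% of all loci tested, so nothing is read from these counts. Without Adam30, the 3, 4 and 3 others had median log2 fold changes of -0.50, -0.31 and -0.27, where those of all loci tested were 0.00, 0.01 and 0.00. So few rows of low counts give no account of the family.

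The study's lists also name other loci on the chromosomes of Cylc1 and Adam30. On chromosome X, 2 others are named. Irak1, a kinase of innate immune signalling, had 83.8, 66.3 and 58.2 normalized counts in the WT libraries, 23.8, 22.3 and 14.8 in those of Prm2+/Δc, and 12.6, 37.0 and 53.2 in Prm2-/Δc. Mum1l1 was between 6.76 and 15.7 in 6 libraries and between 407 and 676 in 3, which were Prm2+/Δc replicates 2 and 3 and Prm2-/Δc replicate 3. On chromosome 3, 8 others are named, of which Psmd4, a proteasome subunit, was called by edgeR in Prm2+/Δc against WT. Psmd4 had 4321, 5068 and 5096 normalized counts in the WT libraries, 1250, 929 and 1023 in Prm2+/Δc, and 1426, 5957 and 664 in Prm2-/Δc. Like Cylc1, it was low in 5 libraries with the Prm2Δc allele and above all WT libraries in 1, but here the exception was Prm2-/Δc replicate 2. Lamtor3, part of a lysosomal signalling complex, had 19.5, 130 and 198 normalized counts in the WT libraries, 20.4, 13.7 and 12.0 in those of Prm2+/Δc, and 16.4, 20.5 and 140 in those of Prm2-/Δc. As with Cylc1, 5 mutant libraries were low and Prm2-/Δc replicate 3 was high, but WT replicate 1 was low as well. Ccnl1, described above, was the only one of the 8 low in all 3 Prm2-/Δc libraries and in no other. Gm37493 and Gm37933 separated WT from both mutant genotypes. Gm37493 had between 28.4 and 53.0 normalized counts in the WT libraries and 0 in the other 6, and Gm37933 had 0 in WT and between 47.2 and 68.4 in the others. The remaining 3 followed neither gene. Zc2hc1a had at most 10.5 normalized counts in WT, between 76.1 and 160 in Prm2+/Δc, and 50.2, 3.29 and 2.17 in Prm2-/Δc. Fhdc1 had 346 and 342 in Prm2+/Δc replicates 2 and 3 and at most 54.2 elsewhere, and Ptbp2 stayed between 755 and 1332.

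Markers of testis cell types were also available only in part. Of those with a named row, Tdrd1, M1ap, Tcam1, Crem, Myl9 and Hbb-bs have a name here only because the study listed them for these genotypes, so neither they nor sums over them stand for the level of a cell type. Of 22 germ cell genes, 5 had a named row, all with counts, and their summed CPM (counts scaled to a common library total) were 108, 176 and 176 in WT, 365, 236 and 201 in Prm2+/Δc and 57.4, 227 and 374 in Prm2-/Δc. Crem, a transcription factor of spermatids, had the highest mean normalized count of the 5. It had 446, 440 and 1084 normalized counts in the WT libraries, 2505, 2822 and 2389 in Prm2+/Δc and 311, 375 and 2048 in Prm2-/Δc. Tcam1, expressed in spermatocytes, had 114, 1050 and 879 in WT, between 117 and 139 in Prm2+/Δc, and 139, 123 and 1015 in Prm2-/Δc. These 2 were high in Prm2-/Δc replicate 3, as Cylc1 was, but the other 3 did not single out that library. M1ap had 709, 695 and 304 normalized counts in the WT libraries, 110, 154 and 170 in those of Prm2+/Δc, and 157, 527 and 394 in those of Prm2-/Δc. It was thus low with Cylc1 in all Prm2+/Δc libraries and in Prm2-/Δc replicate 1, but not in Prm2-/Δc replicate 2. Tdrd1 had 2177 and 1538 in Prm2-/Δc replicates 2 and 3 and 2221 in Prm2+/Δc replicate 1, with at most 180 elsewhere, and Zbtb16 was between 20.4 and 46.7 in all libraries. The part of these genes in the value of Cylc1 was not tested.

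Of the other lists, red blood cells had 1 of 5 genes named, Hbb-bs, a globin, with 42.6, 27.9 and 35.7 CPM in WT, 57.5, 72.0 and 98.8 in Prm2+/Δc and 39.7, 48.0 and 84.4 in Prm2-/Δc. It was higher in Prm2+/Δc than in all WT libraries, and its part in the values of Cylc1 was not tested. Peritubular myoid cells had 1 of 6, Myl9, with 42.1, 36.9 and 0.48 CPM in WT, between 0.33 and 0.79 in Prm2+/Δc, and 47.3, 0.80 and 30.1 in Prm2-/Δc. Leydig cells had 1 of 7, Lhcgr, between 0.44 and 1.94 CPM, and macrophages 3 of 8, led by Adgre1, with summed values between 0.40 and 4.32 CPM. Both Sertoli cell genes with a row, Amh and Fshr, of 10 listed, and all 5 of 8 epididymis genes with a row were at 0 counts in every library. These are Ensembl rows, and the zeros do not show that the genes lack RNA here. Of these markers, edgeR called 0 in each of the 3 comparisons, where it called 0.0730%, 0.00567% and 0.0111% of all loci tested. With so few calls at any locus, this does not show that the markers were unchanged.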

How the data were processed

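The authors prepared 3′ mRNA libraries (QuantSeq) and sequenced 50 bp reads. They mapped these with HISAT2 2.1 to GRCm38 and quantified loci with StringTie 1.3.3. The deposited values are estimated counts (expected counts) per locus, which a script of StringTie derives from coverage and rounds; the sources used here do not give the read length set in it. All values were whole numbers. Gene names came from the study's lists for 150 of 25503 assembled loci and from a name table for 24873 of 24982 Ensembl rows, and coordinates from GENCODE vM21 (GRCm38). No row carries the Ensembl identifier of Cylc1 or Adam30 itself.

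Groups were compared in pairs with edgeR 4.0.16 (glmQLFit and glmQLFTest, R 4.3.3), TMM normalization, filterByExpr and Benjamini-Hochberg adjustment over all loci tested, without covariates. The procedure was tested on simulated data. SE was taken from edgeR's F as the size of the log2 fold change over the root of F. Size factors came from DESeq2 1.42.0 over all 9 libraries, and log2 values had 1 added. Permutation tests used scipy. The authors tested with DESeq2 1.16.1. Each result was recomputed with DESeq2, with its size factors in edgeR, with library totals only, without a filter, with a minimum mean of 10 counts, in one fit of all 9 libraries, with a replicate block, and without each replicate.

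Both genes and all gene lists were chosen with earlier results of these data known. Named were both genes, neighbours by number (at most 2 each), the 5 named loci most like each, members of the theca, acrosome and ADAM lists, cell type markers, and named loci on the same chromosomes. Adam19, Adam33 and the ADAM genes at 0 were named beyond a minimum mean of 10 normalized counts. Each library is 1 mouse, and of 36 library pairs none agreed within sampling noise (smallest chi-square per locus 28.6). Poisson intervals cover counting error only, since reads are not molecules. The p-values set a group difference against the spread between libraries, in which mouse and library preparation cannot be told apart.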

Additional observations from a re-analysis of the deposited data

How the results depend on the processing

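Adam30 in Prm2+/Δc against WT kept its direction and did not pass the test in any of 13 alternatives, with log2 fold changes between -0.25 and -0.07 and adjusted p of at least 0.934 (edgeR or DESeq2). Cylc1 in Prm2-/Δc against WT kept its direction in 13 of 13 and passed the limits of the test in 1, without Prm2-/Δc replicate 3. Since the WT values took part in choosing Cylc1, this is not independent evidence of a difference. The library was also singled out after its values were seen, and nothing is read from that pass. Its values with 1 replicate left out were between -2.22 and -0.27, and with all libraries between -1.37 and -0.69. Cylc1 in Prm2-/Δc against Prm2+/Δc was between 0.30 (without Prm2-/Δc replicate 3) and 2.26 with 1 replicate left out. The other 3 fold changes of Cylc1 and Adam30 moved by less than 1 SD. In the fit of all 9 libraries, the SE of Cylc1 in Prm2+/Δc against WT was 0.70 in place of 0.09, and Cylc1 was not called.

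Counts of called loci depended on the setting, in the order Prm2+/Δc against WT, Prm2-/Δc against WT and Prm2-/Δc against Prm2+/Δc. They were 13, 1 and 2 in edgeR, 83, 72 and 108 in DESeq2, and 5, 7 and 4 with all 9 libraries in one fit. With no filter the third was 6. The cause was not tested. With the replicate number as a block they were 3, 0 and 0, with 448, 361 and 529 loci at an unadjusted p under 0.05 in edgeR. Replicate numbers did not pair the libraries, as deviations of same-numbered libraries correlated between -0.26 and 0.07, and 3 of 9 were best with their own number. With the block, Cylc1 in Prm2-/Δc against WT was -1.37 and Adam30 in Prm2+/Δc against WT was -0.15. With 1 replicate left out, the first count was between 12 and 37, with 22, 20 and 37 without WT replicates 1, 2 and 3. The second was between 0 and 20, with 0, 2 and 5 without WT replicates 1, 2 and 3 and 0, 10 and 20 without Prm2-/Δc replicates 1, 2 and 3. The third was between 0 and 70, with 8, 1 and 0 without Prm2+/Δc replicates 1, 2 and 3 and 10, 4 and 70 without Prm2-/Δc replicates 1, 2 and 3. Where these counts were 0 in edgeR, between 521 and 649 loci had an unadjusted p under 0.05. Adam30 in Prm2-/Δc rested on 42 to 82 estimated counts per library, and Cylc1 there on 887 to 5471. The effect of depth was not tested.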
